A study of Mus musculus with 2 samples.

Results

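The genes described here are 9 genes of antigen presentation, picked by symbol from the 55450 genes that the count tables list. They are the class I heavy chains *H2-K1* and *H2-D1*, the class I light chain *B2m*, the peptide transporter subunits *Tap1* and *Tap2*, the class II chains *H2-Aa*, *H2-Ab1* and *H2-Eb1*, and the class II chaperone *Cd74*. All 9 symbols were found once in both tables. The members were chosen by function, and earlier results of these data were known at the time. They were followed in 5 cell classes of mouse cerebral cortex (myeloid, astrocyte, oligodendrocyte (OL) lineage, fibroblast and neuron) in 2 droplet scRNA-seq libraries, 1 control and 1 of white matter injury (WMI).

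Both libraries came from C57BL/6 mice aged 2 weeks according to the labels. The labels describe ligation of the right common carotid artery at postnatal day 7 with 1 h of hypoxia for the WMI group, and collection of the cortex at day 14. The sample records used here list the same day of surgery and length of hypoxia for the control library. The paper gives an earlier operation, an earlier collection and a longer hypoxia, and it describes trypsin-dissociated cells, whereas the labels speak of nuclei. The control tissue is called a control group in the labels, and in the paper sham in one place and the control side in another. The paper speaks of several replicates per condition, 1 library of each was analysed here, and how many mice a library pools is not stated in the labels. With 1 library per condition there was no replicate check, no test was run and no p-value is given. Every interval below is an exact 95% interval that covers counting error only, and a difference between the libraries can be one between mice, dissections or library preparations as well as between conditions.

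The control library held 66470806 UMIs (unique molecular identifiers, each 1 captured RNA molecule) in 10288 barcodes, and the WMI library 60568639 in 8354. After removal of poor barcodes and predicted doublets, 8755 control and 7571 WMI cells were kept. Among the kept cells, 26 barcode sequences occurred in both libraries. The cells formed 34 clusters, which carry names from marker lists. Class names end in "-like" since they rest on these markers alone. Myeloid-like cells made up 442 control cells (5.05%) and 1817 WMI cells (24%), and carried 16 to 18 of 20 myeloid markers in each of their 3 clusters. There were 489 control and 589 WMI astrocyte-like cells, 561 and 983 OL-lineage cells, 51 and 75 fibroblast-like cells, and 7127 and 3634 neuron-like cells. Levels are given in CPM, the usual scaling of the UMIs of a gene by all UMIs of the cells of a class in a library. The capture was not scaled for gene length, so that levels of different genes were not compared with each other.

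Class I molecules show peptides made from proteins of the cell's own cytosol to CD8+ T cells. Their heavy chain needs the light chain β2-microglobulin and a peptide, which the TAP transporter carries into the endoplasmic reticulum. Class II molecules show peptides from material taken up by the cell to CD4+ T cells, and are kept free of other peptides on their way by the invariant chain, the product of *Cd74*. In healthy brain tissue both classes are held at a low level, and microglia are known to make more of them after injury or exposure to interferons, whereas dendritic cells make class II molecules all the time. The C57BL/6 strain makes no functional partner chain for the product of *H2-Eb1*.

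By the gene annotation (GENCODE M21, GRCm38), *H2-K1* (ENSMUSG00000061232) is a gene of chromosome 17 (minus strand, 33996017 to 34000347). *H2-D1* (ENSMUSG00000073411) lies on the plus strand of the same chromosome from 35262730 to 35267499. Between them are *Tap1* (ENSMUSG00000037321, plus strand, 34187553 to 34197225), *Tap2* (ENSMUSG00000024339, plus strand, 34203527 to 34216321), *H2-Ab1* (ENSMUSG00000073421, plus strand, 34257689 to 34269419), *H2-Aa* (ENSMUSG00000036594, minus strand, 34282744 to 34287823) and *H2-Eb1* (ENSMUSG00000060586, plus strand, 34305867 to 34316674). *B2m* (ENSMUSG00000060802) lies on the plus strand of chromosome 2 from 122147686 to 122153083, and *Cd74* (ENSMUSG00000024610) on another chromosome. *Tap1* overlaps *Psmb9*, *B2m* overlaps *Patl2*, *Tap2* overlaps *Gm20496* and *Gm15821*, and *H2-Eb1* overlaps *Gm20513*, each on the other strand, and *Cd74* overlaps *Mir5107* on its own strand. *H2-K1*, *H2-D1* and the further class I genes are close copies of one another, so the split of UMIs among them is uncertain, and the sum of *H2-K1* and *H2-D1* is given beside each gene.

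The 250 bases before the start of *H2-K1*, *B2m* and *H2-Aa* are shown because these genes stand for the heavy chain, the light chain and class II, whose promoters are known to hold control elements in common. They come from RefSeq (GRCm38.p6), at chr17:34000348-34000597 on the minus strand for *H2-K1*, chr2:122147437-122147686 on the plus strand for *B2m* and chr17:34287824-34288073 on the minus strand for *H2-Aa*, and are written 5′ to 3′ along the gene.
H2-K1: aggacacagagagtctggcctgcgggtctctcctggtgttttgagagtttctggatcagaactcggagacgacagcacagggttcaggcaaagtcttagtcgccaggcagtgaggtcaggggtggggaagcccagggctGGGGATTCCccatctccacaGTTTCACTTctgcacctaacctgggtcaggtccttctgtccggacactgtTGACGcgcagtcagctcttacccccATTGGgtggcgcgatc
B2m: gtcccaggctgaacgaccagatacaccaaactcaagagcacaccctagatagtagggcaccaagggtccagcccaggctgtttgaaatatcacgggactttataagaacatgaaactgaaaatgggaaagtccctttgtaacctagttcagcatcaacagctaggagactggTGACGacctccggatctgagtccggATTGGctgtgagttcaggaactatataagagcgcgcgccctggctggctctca
H2-Aa: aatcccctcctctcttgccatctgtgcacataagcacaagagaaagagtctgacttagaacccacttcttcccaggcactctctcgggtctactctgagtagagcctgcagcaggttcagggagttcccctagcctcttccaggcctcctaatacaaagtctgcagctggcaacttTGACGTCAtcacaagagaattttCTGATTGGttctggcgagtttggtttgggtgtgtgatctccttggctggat
Capitals mark matches to 5 letter strings searched on both strands. CCAAT, read on the other strand as ATTGG, was found once in each of the 3 sequences and in 34.5% of 27025 promoters of the same length. In *H2-Aa* it is part of CTGATTGG, a Y box, which 4.07% of promoters hold. TGACG, the core of the cAMP response element, was also found in all 3, in *H2-Aa* on both strands where the matches overlap, and is present in 17.9% of promoters. Only the *H2-K1* sequence of these held GTTTCNNTT, which resembles an interferon-stimulated response element (4.99% of promoters), and GGGGATTCC, which resembles a κB site (0.218%). These are matches of letters and not shown to be used here. Other spellings of these elements were not searched, so a sequence without a match, such as that of *B2m*, can still hold an element of that kind.

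In myeloid-like cells the class I heavy chains were higher in the WMI library. *H2-K1* measured 6.90 CPM in the control library (10 UMIs, 95% interval 3.31 to 12.7) and 92.8 CPM in the WMI library (492 UMIs, 84.8 to 101). This was 13.5-fold higher (7.26 to 28.2), a log2 ratio of 3.75. *H2-D1* measured 11 CPM (16 UMIs, 6.31 to 17.9) in the control library and 60.9 CPM (323 UMIs, 54.5 to 67.9) in the WMI library, 5.52-fold higher (3.35 to 9.78). The intervals of the libraries did not overlap for either gene. Summed, the heavy chains measured 17.9 CPM in the control library and 154 CPM in the WMI library, a log2 ratio of 3.10 (2.54 to 3.72).

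*B2m*, whose product pairs with every classical heavy chain, was already well represented in control myeloid-like cells, at 82.8 CPM (120 UMIs, 68.6 to 99.0). It measured 198 CPM (1050 UMIs, 186 to 210.4) in the WMI library, 2.39-fold higher (1.98 to 2.92). The log2 ratio of *B2m* was 1.26 (0.99 to 1.54), and its interval lay below that of *H2-K1* (2.86 to 4.82) and of *H2-D1* (1.74 to 3.29). In these counts, then, the 3 class I genes were higher by unequal factors.

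Of the subunits of the peptide transporter, *Tap2* had the smallest ratio of the 9 genes. *Tap1* measured 5.52 CPM (8 UMIs, 2.38 to 10.9) in control and 21.5 CPM (114 UMIs, 17.7 to 25.8) in WMI myeloid-like cells, 3.90-fold higher (1.91 to 9.25). *Tap2* measured 10.3 CPM (15 UMIs, 5.79 to 17.1) and 18.7 CPM (99 UMIs, 15.2 to 22.7), 1.81-fold higher with an interval (1.04 to 3.35) that nearly reached equality. Since the products of both genes form 1 transporter, their sum was also taken, and it was 15.9 CPM in the control and 40.2 CPM in the WMI library (log2 ratio 1.34, 0.72 to 2.03).

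The class II genes were at or near 0 in control myeloid-like cells. *H2-Aa* and *H2-Eb1*, an α and a β chain, had 0 UMIs in the 442 control cells, and *H2-Ab1* and *Cd74* had 1 UMI each. The WMI cells held 92 UMIs of *H2-Aa* (17.4 CPM, 14.0 to 21.3), 110 of *H2-Ab1* (20.7 CPM, 17.1 to 25), 91 of *H2-Eb1* (17.2 CPM, 13.8 to 21.1) and 289 of *Cd74* (54.5 CPM, 48.4 to 61.2). Against a floor of 3 counts in the control library, *H2-Aa* was at least 8.39-fold and *H2-Eb1* at least 8.30-fold higher. The ratio of *Cd74* was 79.0 (14.1 to 3133) and that of *H2-Ab1* 30.1 (5.29 to 1199), wide intervals because of the single control UMI. The 4 genes together measured 1.38 CPM (0.167 to 4.98) in the control library and 109.8 CPM (101 to 119) in the WMI library, a log2 ratio of 6.31 (4.46 to 9.36).

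**Figure D1:**
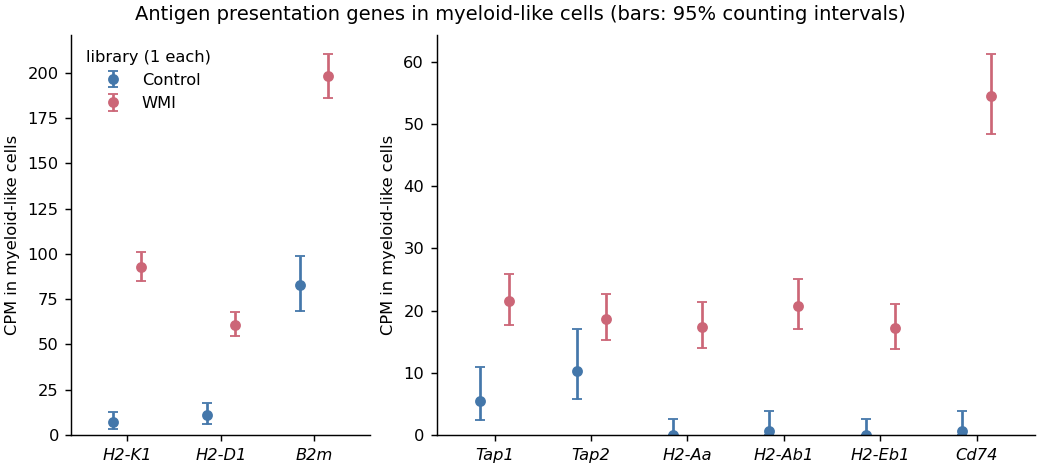
Level of each gene in myeloid-like cells in CPM (linear axes from 0), with control in blue and WMI in red; points are 1 library each and bars are 95% counting intervals. The WMI point lies above the control point for all 9 genes, and the intervals overlap for *Tap2* alone.

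These ratios were read against all genes of the same cells. Of the 6040 genes with at least 200 UMIs in myeloid-like cells, 331 (5.48%) were at least 2-fold higher in the WMI library and 45 (0.745%) at least 2-fold lower, and the median log2 ratio was 0.088. Only 4 of the 9 genes had 200 UMIs (*H2-K1*, *H2-D1*, *B2m* and *Cd74*), and all 4 were at least 2-fold higher. Because the WMI library holds most of the myeloid UMIs, a gene low in the control library passed this minimum mainly through the WMI library. The ratio of *B2m*, the 1 gene of the 4 with over 20 control UMIs, was exceeded by 220 of the 6040 genes. Among the 14696 genes with at least 20 UMIs, which include all 9, 10.6% were at least 2-fold higher. Of the 9 genes 8 were, *Tap2* being the exception, but all of the 9 except *B2m* had fewer than 20 control UMIs and passed through the WMI library, so nothing is read from the count.

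The makeup of the myeloid-like cells differed between the libraries, and this was measured in 6 sub-clusters made without the 9 genes. Sub-cluster 0 (homeostatic microglia-like, 6 of 9 markers such as *P2ry12*, *Tmem119* and *Sall1*) held 421 control cells (95.2% of the control myeloid-like cells) and 459 WMI cells (25.3%). Sub-cluster 1 (activated myeloid-like, 5 of 12 markers, led by *Gpnmb*, *Plin2* and *Igf1*) held 5 control and 800 WMI cells. Sub-cluster 2 was shallow (median 1766 UMIs in the WMI library), carried none of the 9 homeostatic markers above the limit for naming, was led by *Gfap* and neuronal genes, and stayed unnamed with 3 and 419 cells. Sub-cluster 3, led by *Cd74*, *S100a8*, *S100a9*, *Srgn* and *Ccr2*, held 90 WMI cells and 0 control cells. Sub-cluster 4 was made of cycling cells (9 and 26), and sub-cluster 5 (border macrophage-like, 7 of 8 markers, led by *F13a1* and *Mrc1*) held 4 and 23. A comparison between libraries at useful depth was therefore possible in sub-cluster 0 only.

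In sub-cluster 0 the class I genes were higher in the WMI library by about the factors of the whole class. *H2-K1* measured 7.27 CPM (3.49 to 13.4) in control and 84.3 CPM (70.3 to 100.1) in WMI cells, 11.6-fold higher (6.1 to 24.7). *H2-D1* measured 10.9 CPM and 58.1 CPM, 5.33-fold higher (3.06 to 9.92), and *B2m* 84.3 CPM and 226 CPM, 2.68-fold higher (2.17 to 3.34). The median depth of these cells was 3124 UMIs in the control and 3132 in the WMI library. *Tap1* was 3.03-fold higher (1.34 to 7.72), and the interval of *Tap2* (1.67-fold, 0.840 to 3.46) included equality. Of 2924 genes with at least 200 UMIs in sub-cluster 0, 2.94% were at least 2-fold higher. *B2m* was the only one of the 9 genes among the 2924, and 30 of them had a higher ratio.

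Cells of sub-cluster 0 from the libraries were alike in homeostatic markers but not in others. The 9 homeostatic markers summed to 3894 CPM in control and 5031 CPM in WMI cells, with none at 0. The 12 markers of activated myeloid cells summed to 231 CPM (6 at 0, among them *Spp1*, *Itgax* and *Clec7a*) and 4301 CPM (*Itgax* at 0), of which *Apoe*, a lipid carrier, made 163 CPM and 3900.1 CPM. The part of this difference in the class I ratios was not tested.

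Within the WMI library, heavy chain levels were alike in the 2 largest sub-clusters and higher in sub-cluster 3. *H2-K1* and *H2-D1* together measured 142 CPM (124 to 163) in sub-cluster 0, 142 CPM (127 to 157) in sub-cluster 1 and 75.1 CPM (57.5 to 96.5) in sub-cluster 2. They measured 261 CPM (162 to 399) in sub-cluster 5 and 635 CPM (534 to 749.5) in sub-cluster 3. *B2m* measured 226 CPM (203 to 251) in sub-cluster 0, 188 CPM (171 to 205) in sub-cluster 1, 286 CPM (181 to 429) in sub-cluster 5 and 440.1 CPM (357 to 537) in sub-cluster 3. *Tap1* was at 68.1 CPM (38.1 to 112) in sub-cluster 3 against 17.6 CPM (11.6 to 25.7) in sub-cluster 0, whereas *Tap2* was at 18.1 CPM (4.94 to 46.5) and 17.0 CPM (11.1 to 24.9). For the summed heavy chains, sub-cluster 3 stood above and sub-cluster 2 below the rest of these beyond their intervals, and sub-cluster 5 overlapped sub-cluster 0 at the edge of its interval.

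Class II transcripts were concentrated in a few cells of sub-cluster 3. The 4 genes measured 2228 CPM (2035 to 2434) over its 90 cells, but 7 of these cells held all but 11 of the 491 UMIs, and the other 83 cells measured 57.2 CPM (28.5 to 102). They measured 11.8 CPM (6.97 to 18.6) in sub-cluster 0, 18.5 CPM (13.6 to 24.6) in sub-cluster 1, 28.3 CPM (18.0 to 42.5) in sub-cluster 2 and 12.4 CPM (0.315 to 69.3, 1 UMI) in sub-cluster 5. In sub-cluster 0 the control level was 1.45 CPM (0.176 to 5.25). The 90 cells of sub-cluster 3 were mixed. Monocyte and neutrophil markers summed to 2346 CPM (7 of 8 detected), T and NK cell markers to 436 CPM (9 of 12 detected, in 9 cells with 3 or more UMIs), and *S100a8* was detected in 13.3% and *Ccr2* in 18.9% of the cells.

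**Figure D2:**
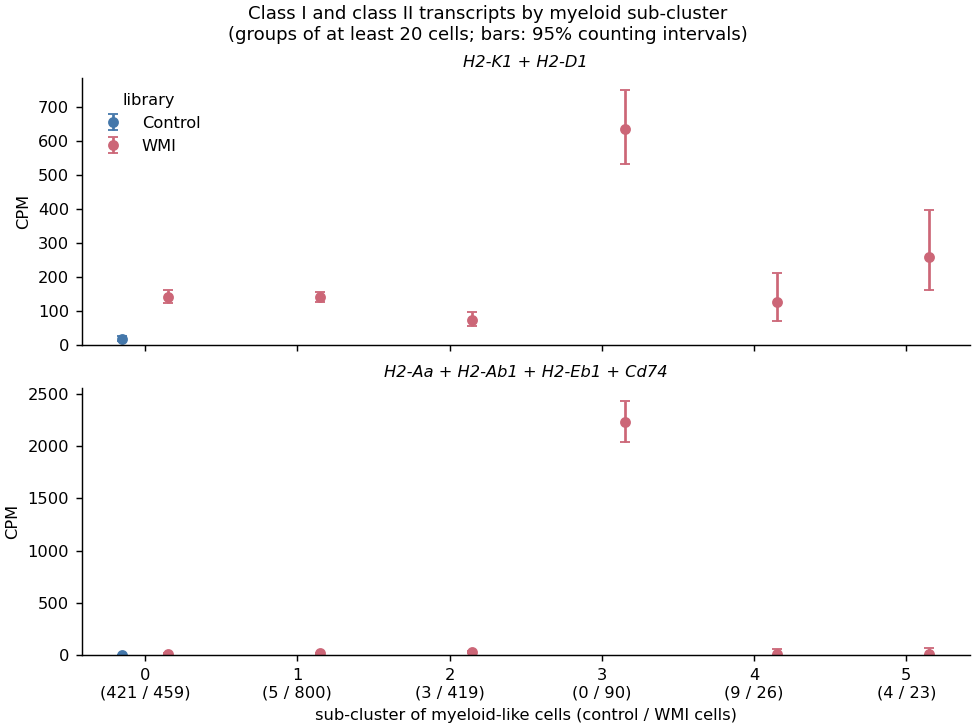
CPM of the summed heavy chains (top) and of the summed class II genes (bottom) in each myeloid sub-cluster, control in blue and WMI in red, for groups of at least 20 cells, with 95% counting intervals on linear axes from 0. Heavy chain levels stand between 75.1 and 635 CPM in the sub-clusters of the WMI library, whereas class II stands at 2228 CPM in sub-cluster 3, where 7 cells carry most of it and the other 83 are at 57.2 CPM, and at no more than 28.3 CPM in sub-clusters 0, 1, 2 and 5.

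Single cells showed how differently the classes were spread. In WMI myeloid-like cells, *B2m* UMIs were found in 677 cells (37.3% of 1817) and *H2-K1* UMIs in 352 (19.4%). The 20 cells with the most UMIs held 12.7% of all *B2m* UMIs and 19.9% of all *H2-K1* UMIs. *Cd74*, in contrast, was found in 41 cells (2.26%), and the top 20 cells held 92.7% of its UMIs. For *H2-Ab1* this share was 96.4%, and for the summed class II genes 87.5%.

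Shares of positive cells depend on depth, so each cell was thinned to 1000 UMIs, which left out 0 cells. After thinning, *H2-K1* was found in 0.452% of control and 7.82% of WMI myeloid-like cells, and *B2m* in 6.79% and 16.7%. In neuron-like cells, where free RNA from broken cells can also be captured, the thinned shares were 0.210% and 1.32% for *H2-K1* and 1.54% and 3.66% for *B2m*. The median depth was 3129.5 UMIs in control and 2585 in WMI myeloid-like cells, and 4448 and 8908.5 in neuron-like cells. For the class II genes together the thinned share in the WMI library was 2.64% of myeloid-like cells and 0.743% of neuron-like cells, and in the control library 0.452% and 0.126%. Without thinning the WMI shares of the 2 classes were close to each other. Of 1817 myeloid-like cells 1724 held no class II UMI, and of 3634 neuron-like cells 3435.

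A class II-rich cell was taken to be a barcode with UMIs of at least 3 of the 4 class II genes. None of the 8755 kept control cells was one, which allows a share of up to 0.0421% by counting error, and no kept control cell held more than 1 class II UMI. In the WMI library 10 of 7571 kept cells were, and they held 522 of the library's 929 class II UMIs (56.2%). Of these 10 cells, 7 were in sub-cluster 3, 1 in sub-cluster 1 and 2 in unnamed clusters. The cells held 9 to 194 class II UMIs each, with a median of 18.5. The richest held 106 UMIs of *Cd74*, 32 of *H2-Eb1*, 28 of *H2-Aa* and 28 of *H2-Ab1* among its 3935 UMIs, and the next held 81, 30, 26 and 35 among 4153.

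The 10 cells carried transcripts of dendritic cells, the professional class II presenters, beside those of other myeloid lists. All 9 dendritic markers were detected, and they summed to 1754 CPM with at least 1 UMI in 9 of the 10 cells, against 241 CPM in the other 1809 WMI myeloid-like cells. Most of the 1269 UMIs behind the 241 CPM were of *Siglech*, which is also on the homeostatic microglia list (767 UMIs in sub-cluster 0). In the 10 cells *Siglech* made 2 of the 60 UMIs. *Zbtb46*, a transcription factor of conventional dendritic cells, was found in 6 cells, *Flt3*, the receptor for the growth factor on which they depend, in 4, and *Cd209a* and *Clec10a*, lectins, in 3 each. In the other 83 cells of sub-cluster 3, *Cd209a* and *Clec10a* had 0 UMIs and the 9 markers summed to 114 CPM. *Clec10a* was not particular to the 10 cells (292 CPM). It was found in 52.2% of the WMI cells of sub-cluster 5 (border macrophage-like, 199 CPM), where *Cd209a* had 0 UMIs. The genes highest in the 10 cells against other WMI myeloid-like cells were led by *Isg15* (760 CPM against 6.64, in 2 of the 10 cells). Further down was *Ciita*, the class II transactivator (263 CPM against 1.33, with 9 UMIs in 4 of the 10 cells). The 9 homeostatic microglia markers, all detected, summed to 1520 CPM in them (2854 CPM in the other WMI myeloid-like cells), and 11 of the 12 activated myeloid markers to 3420 CPM (5389.9 CPM). *Apoe* made 86 of the 117 activated marker UMIs in the 10 cells. Of the 8 monocyte and neutrophil markers 3 were detected in the 10 cells, at 526 CPM (389.7 CPM in the other WMI myeloid-like cells). None of the 12 T and NK cell markers was detected in the 10 cells. These cells were picked for their class II UMIs, so that the class II values describe the choice.

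Predicted doublets changed this count. Among them were 1 further class II-rich barcode of the control and 3 of the WMI library. The control barcode held 37 class II UMIs among its 4940, together with 4 UMIs of *Zbtb46*, 3 of *Cd209a* and 3 of *Clec10a*. Over all barcodes that passed the quality limits, class II-rich barcodes were thus 1 of 9540 in the control library (0.0105%, 0.000265 to 0.0584) and 13 of 8113 in the WMI library (0.160%, 0.0853 to 0.274). The class II ratio of myeloid-like cells with doublets kept was 2.38 on the log2 scale, in place of 6.31.

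**Figure D3:**
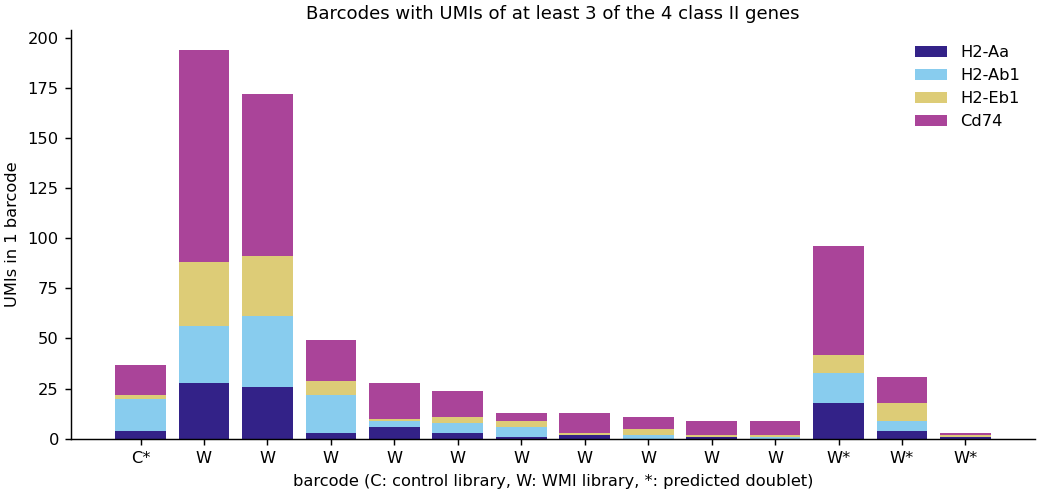
UMIs of the 4 class II genes (stacked colours, linear axis from 0) in each barcode with at least 3 of the 4 genes; C is the control and W the WMI library, and a star marks a predicted doublet. The single control barcode holds 37 UMIs, and the kept WMI cells range from 9 to 194.

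Without the class II-rich cells the WMI myeloid-like cells held 93 class II UMIs, a level of 17.6 CPM (14.2 to 21.6), against 1.38 CPM (0.167 to 4.98) in the control library. Neuron-like cells, which are not known to make class II molecules, held 0.945 CPM (0.694 to 1.26) and 5.24 CPM (4.54 to 6.01) in the control and WMI library. In CPM, the class II level of the remaining WMI myeloid-like cells thus stood above that of neuron-like cells of the same library. The median depth was 2585 UMIs in all WMI myeloid-like cells and 8908.5 in WMI neuron-like cells. Per cell this order did not hold, with 93 class II UMIs in 1809 remaining myeloid-like cells and 204 in 3634 neuron-like cells. The neuron-like level was itself higher in the WMI than in the control library. The part of free RNA in the level of the remaining myeloid-like cells was not tested.

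Outside the myeloid-like cells, class I transcripts were also higher in the WMI library, in each of the other 4 classes. The summed heavy chains measured 9.17 CPM (5.81 to 13.8) in control and 38.4 CPM (31.9 to 46.0) in WMI astrocyte-like cells, a log2 ratio of 2.07 (1.42 to 2.78). In OL-lineage cells they measured 6.69 CPM (4.24 to 10.0) and 34.5 CPM (29.6 to 40), a log2 ratio of 2.37 (1.74 to 3.06). Fibroblast-like cells had 3 and 20 UMIs, 9.76 CPM and 49.9 CPM, with a wide interval of the log2 ratio of 2.36 (0.60 to 4.75). In neuron-like cells the levels were 6.69 CPM (5.99 to 7.45) and 17.3 CPM (16.0 to 18.6), a log2 ratio of 1.37 (1.18 to 1.56). Its interval lay below that of myeloid-like cells. The makeup of the neuron-like cells also differed between the libraries. A cluster with a median of 2896 UMIs held 2323 control and 160 WMI cells, and one with 1723.5 UMIs held 1152 and 20. A cluster led by *Rarb* and *Penk* held 0 and 94. The part of this makeup in the ratio was not tested, and a ratio without clusters from mostly 1 library is given at the end.

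*B2m* followed the same direction. It measured 12 CPM and 52.5 CPM in astrocyte-like cells (4.39-fold, 2.96 to 6.72), 10.2 CPM and 40.5 CPM in OL-lineage cells (3.98-fold, 2.77 to 5.87), 19.5 CPM and 84.9 CPM in fibroblast-like cells (4.35-fold, 1.80 to 12.7) and 9.49 CPM and 26.0 CPM in neuron-like cells (2.74-fold, 2.45 to 3.06). In the WMI library the order of the classes was myeloid-like, fibroblast-like, astrocyte-like, OL-lineage and neuron-like for *B2m* and for the heavy chains. In CPM, myeloid-like cells stood above and neuron-like cells below all others beyond their intervals. The median depth in the WMI library was 8908.5 UMIs in neuron-like, 4837 in astrocyte-like, 4566 in OL-lineage and 4881 in fibroblast-like cells. Per cell, neuron-like cells were not below OL-lineage cells. The 3634 neuron-like cells held 673 heavy chain and 1012 *B2m* UMIs, and the 983 OL-lineage cells 178 and 209. For the heavy chains the intervals of fibroblast-like, astrocyte-like and OL-lineage cells overlapped. In the control library, all intervals of the heavy chains outside the myeloid-like cells overlapped.

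**Figure D4:**
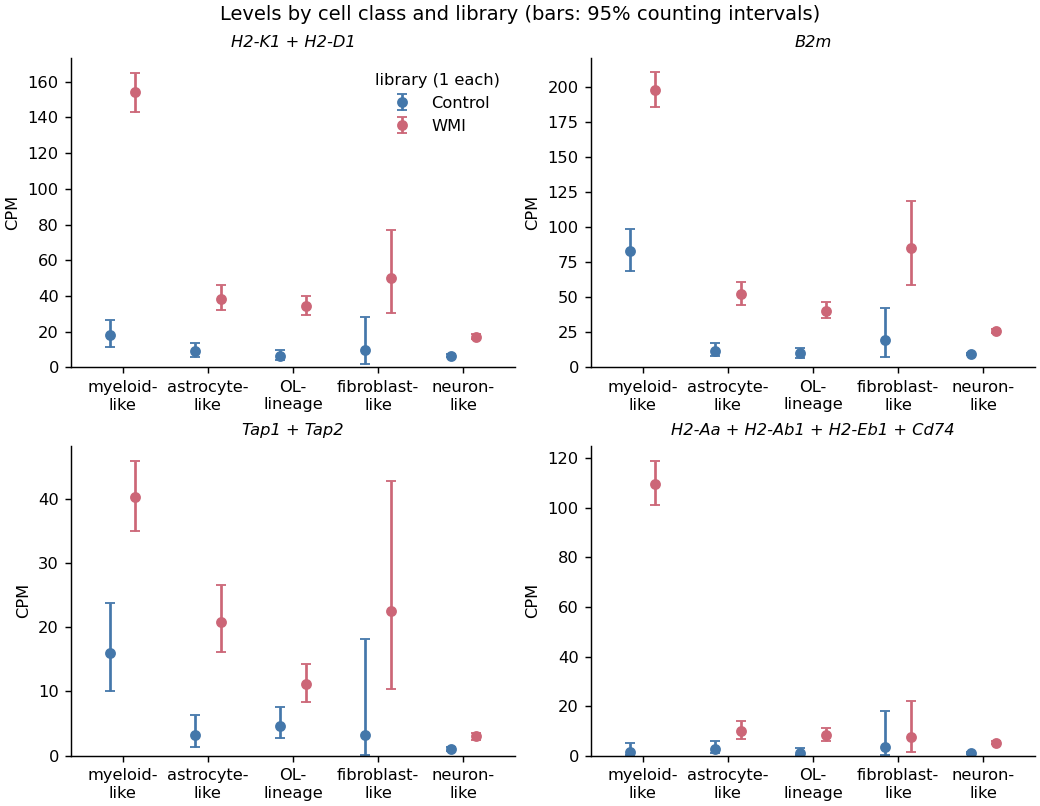
CPM in the 5 cell classes for the summed heavy chains, *B2m*, the summed *Tap1* and *Tap2*, and the summed class II genes, control in blue and WMI in red, with 95% counting intervals on linear axes from 0. For the heavy chains and *B2m* the WMI point stands above the control point in all 5 classes, from 17.3 and 26.0 CPM in neuron-like cells to 154 and 198 CPM in myeloid-like cells.

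The transporter genes showed more difference among the classes. *Tap2* measured 1.99 CPM and 14.1 CPM in astrocyte-like cells, 7.07-fold higher (2.81 to 22.8) in the WMI library, but 4.36 CPM and 5.24 CPM in OL-lineage cells, where the interval of the ratio (0.616 to 2.43) included equality. *Tap1* measured 0.291 CPM (1 UMI) and 5.82 CPM (30 UMIs) in OL-lineage cells, a ratio of 20.0 (3.33 to 816), and 1.20 CPM and 6.73 CPM in astrocyte-like cells, a ratio of 5.62 (1.68 to 29.4). In neuron-like cells *Tap1* was 3.83-fold (2.39 to 6.36) and *Tap2* 2.08-fold higher (1.26 to 3.50), both from levels below 1 CPM.

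Among the genes with at least 200 UMIs, 3.31% were at least 2-fold higher in astrocyte-like cells, 1.03% in OL-lineage cells, 3.20% in fibroblast-like cells and 1.78% in neuron-like cells. None of the 9 genes reached 200 UMIs in astrocyte-like or fibroblast-like cells. *B2m* did so in OL-lineage cells (35 control and 209 WMI UMIs) and was at least 2-fold higher. In neuron-like cells *H2-K1* (4.58-fold, 3.58 to 5.90) and *B2m* were at least 2-fold higher, and *H2-D1* was 1.91-fold higher (1.62 to 2.25). *B2m* in OL-lineage cells and *H2-K1* in neuron-like cells (84 and 301 UMIs) passed the minimum through the WMI library. Nothing is read from their place among the genes called. In neuron-like cells *B2m* (472 and 1012 UMIs) and *H2-D1* (249 and 372) passed it in the control library as well.

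**Figure D5:**
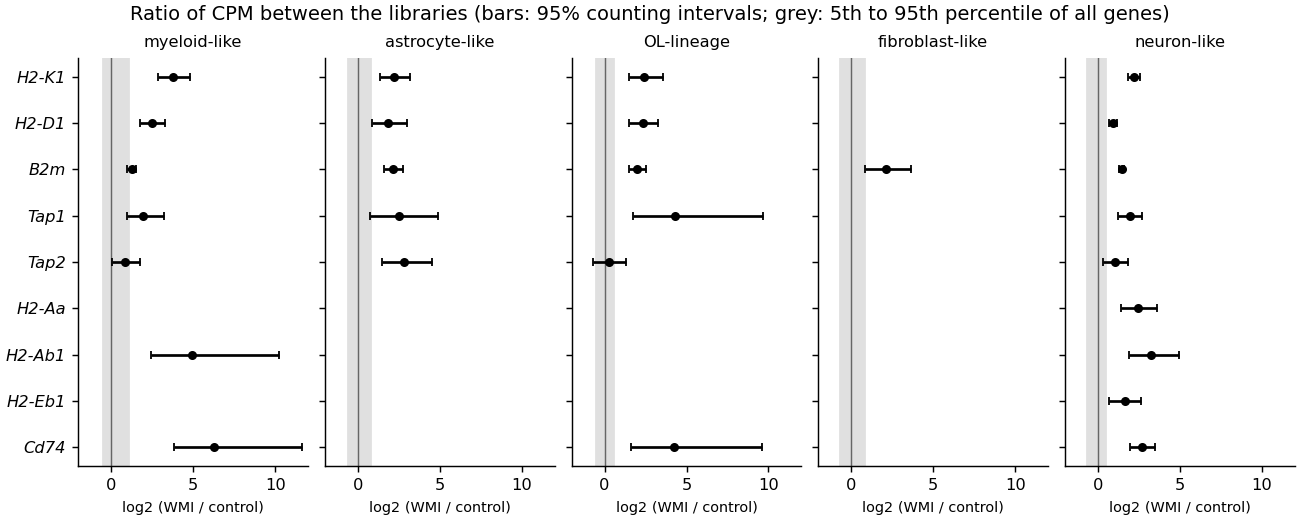
Log2 ratio of CPM between the libraries for each gene and cell class with 95% counting intervals, beside the range from the 5th to the 95th percentile over all genes with at least 200 UMIs (grey); genes with too few UMIs for a ratio are left out. In myeloid-like cells *H2-K1* (3.75), *H2-D1* (2.47), *H2-Ab1* (4.91) and *Cd74* (6.30) have intervals wholly to the right of the grey band. These genes had 1 to 16 control UMIs, and genes that low pass a UMI minimum mainly through the WMI library. Nothing is therefore read from their place beside the band. *Tap2* in OL-lineage cells (0.26) overlaps 0.

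Levels outside the myeloid-like cells were set beside those of 14 myeloid markers such as *Csf1r* and *C1qa*, most of which the other classes are not known to express. The list includes *Spp1*, which is also known from neurons and reactive astrocytes and alone sets the upper end of each WMI range below. In the WMI library these markers reached 9.39% to 35.5% (median 16.6%) of their myeloid-like level in astrocyte-like cells, 7.28% to 28.1% (median 16.1%) in OL-lineage cells and 5.01% to 18.1% (median 9.72%) in neuron-like cells. *H2-K1* reached 25.9%, 16.9% and 8.33% in these classes, *H2-D1* 23.7%, 30.9% and 15.7%, and *B2m* 26.5%, 20.5% and 13.1%. All of these values but that of *H2-D1* in OL-lineage cells lay within the range of the markers. Without *Spp1*, however, the other 13 markers reached at most 20.4%, 24.5% and 13.9% in these classes. The values of all 3 genes in astrocyte-like cells and of *H2-D1* in OL-lineage and neuron-like cells lay above these. Each of their intervals overlapped that of the highest of the 13 markers, though. In astrocyte-like cells *B2m* had 22.4 to 31.3 and *Fcer1g*, the highest marker, 16.4 to 25.3. *Tap2* in astrocyte-like cells, at 75.5% (51.7 to 109), lay above the range with *Spp1* as well. In fibroblast-like cells the markers spanned 8.38% to 34.6%, with *Spp1* again the highest, and *B2m* was at 42.9% (29.5 to 60.3), *H2-D1* at 36.9% (16.7 to 70.9), *Tap2* at 80.2% (28.8 to 181) and *H2-K1* at 29.6% (14.7 to 53.4). The part of captured myeloid RNA in the levels outside myeloid-like cells was not tested.

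In the control library, where *Spp1* had 0 UMIs in myeloid-like cells and 13 markers remained, they spanned 3.01% to 57.8% (median 5.35%) in astrocyte-like, 0% to 63.2% (median 4.29%) in OL-lineage and 2.66% to 27.7% (median 5.08%) in neuron-like cells. The upper ends are those of *Gpnmb*, with 2 UMIs in control myeloid-like cells. In this library *H2-K1* reached 75.2% (30.4 to 192) of its myeloid-like level in astrocyte-like and 24.5% (12.7 to 52.9) in neuron-like cells, and *B2m* 14.5% (9.35 to 21.7) and 11.5% (9.36 to 14.1). *H2-D1* reached 36.1% (14.7 to 84.7) in astrocyte-like and 45.4% (27.4 to 80.6) in neuron-like cells. The value of *H2-K1* in astrocyte-like cells and that of *H2-D1* in neuron-like cells were above all markers. In OL-lineage cells *H2-K1*, *H2-D1* and *B2m* reached 42.2%, 34.3% and 12.3%. Without *Gpnmb* the markers reached at most 9.64% in astrocyte-like, 7.24% in OL-lineage and 7.77% in neuron-like cells. All of these class I values lay above that. The highest marker in astrocyte-like and neuron-like cells was then *Lyz2*, with 6 UMIs in control myeloid-like cells and wide intervals (0.210 to 79.4 and 2.89 to 24.2). The class II genes in WMI neuron-like cells stood at 4.29% to 6.22% of their myeloid-like level, and *Cd74* at 7.05% in astrocyte-like and 9.96% in OL-lineage cells. That myeloid-like level came mostly from the class II-rich cells. Summed, the class II genes measured 109.8 CPM in WMI myeloid-like cells, 17.6 CPM without those cells, and 5.24 CPM in neuron-like cells. In the fibroblast-like cells *H2-Ab1* and *H2-Eb1* had 0 UMIs in both libraries.

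Among the astrocyte-like cells, the heavy chains measured 9.83 CPM and 32.2 CPM in the larger cluster, and 5.39 CPM (2 UMIs) and 47.8 CPM in the cluster led by *Gfap* and *A2m*, genes of reactive astrocytes. The ratio was 3.27 (1.96 to 5.66) in the first and 8.86 (2.35 to 74.8) in the second, with overlapping intervals. Among OL-lineage cells, the heavy chains measured 4.34 CPM and 38.6 CPM in OL precursor-like cells, 7.79 CPM and 33.2 CPM in premyelinating OL-like cells and 10.3 CPM and 27.0 CPM in mature OL-like cells. The ratios were 8.88 (4.13 to 22.8), 4.26 (1.97 to 11) and 2.63 (1.01 to 7.32), and their intervals overlapped.

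Other genes of the pathway were taken as 5 lists with 55 genes in the tables, chosen by function. Counts are given for genes with at least 20 UMIs in myeloid-like cells, against the 10.6% of all such genes that were at least 2-fold higher and a median log2 ratio of 0.13. Of 11 genes for class I peptide loading and trimming, 5 were at least 2-fold higher and none at least 2-fold lower (median log2 ratio 0.88). Of these 5 only *Tapbp* had over 20 control UMIs (27). The others had 2 to 9 and passed the minimum through the WMI library, so nothing is read from the count. *Tapbp*, the tapasin that bridges TAP and the heavy chain, measured 18.6 CPM and 49.0 CPM, 2.63-fold higher. The immunoproteasome subunits *Psmb8* and *Psmb10* were 2.13-fold and 2.60-fold higher (log2 intervals 0.083 to 2.28 and 0.33 to 2.64). The third, *Psmb9*, was 1.85-fold higher with a log2 interval (-0.20 to 2.17) that included 0. The proteasome activator *Psme2* was 2.67-fold higher (log2 interval 0.37 to 2.68), whereas its partner *Psme1* measured 25.5 CPM and 26.6 CPM. Of the other class I heavy chains, 8 had 20 UMIs and all 8 were at least 2-fold higher, among them *H2-T23* (2 and 40 UMIs) and *H2-Q4* (4 and 47 UMIs). These 8 had 0 to 11 control UMIs and passed the minimum through the WMI library, so nothing is read from their count.

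Of the class II editing and proteolysis genes 8 had 20 UMIs, and 3 were at least 2-fold higher. These 3 were the lysosomal proteases *Ctsb* (137 CPM and 856 CPM, 6.24-fold) and *Ctsd* (238 CPM and 1241 CPM, 5.22-fold) and the thiol reductase *Ifi30* (5.74-fold). *Ctsd* and *Ctsb* act on many substrates, and *Ifi30* had 9 control UMIs and passed the minimum through the WMI library. The class II peptide editor *H2-DMa* measured 21.4 CPM and 16.0 CPM, a ratio of 0.750 with a log2 interval of -1.02 to 0.23. *Ctss*, which trims the invariant chain, was 1.72-fold higher.

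Of the regulators of these genes 12 had 20 UMIs, and 3 were at least 2-fold higher. *Nlrc5*, the class I transactivator, measured 3.45 CPM (5 UMIs) and 34.9 CPM (185 UMIs), 10.1-fold higher. *Irf1*, an interferon-response transcription factor, was 3.69-fold higher (10 and 135 UMIs). Both genes passed the minimum of 20 UMIs through the WMI library, so nothing is read from the count of 3. *Ciita* had 1 and 16 UMIs in myeloid-like cells, and the 10 class II-rich cells held 9 UMIs of it. *Rfx5*, *Rfxank* and *Rfxap*, subunits of the factor that binds class I and class II promoters, had ratios of 1.14, 1.09 and 1.02. *Ifng*, which encodes interferon-γ, had 0 UMIs in myeloid-like cells of both libraries.

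In sub-cluster 0 alone, 4 of 10 loading genes, 5 of 7 class II editing genes, 4 of 11 regulators, 0 of 5 costimulation and checkpoint ligands and 0 of 1 other heavy chain (*H2-T24*, 1.88-fold) with at least 20 UMIs were at least 2-fold higher, against 5.51% of all 11624 such genes. *Nlrc5* measured 1.45 CPM (2 UMIs) and 14.4 CPM (22 UMIs), and *Tapbp* 19.6 CPM and 42.5 CPM there. *Nlrc5* and others of the counted genes, such as *Psme2* (7 and 23 UMIs), passed the minimum through the WMI library. Nothing is therefore read from these counts. In astrocyte-like cells *Tapbp* was 3.16-fold higher and *Rfx5* had a ratio of 0.417, with *Nlrc5* at 0 and 28 UMIs. In neuron-like cells *Nlrc5* and *Tapbp* were 1.96-fold and 1.98-fold higher. Counts over the lists are left out for both classes, since the share of all genes was not taken at 20 UMIs there.

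The costimulatory ligands *Cd86* and *Cd80*, whose signal a T cell needs beside the presented peptide, had ratios below 1 over all myeloid-like cells and above 1 in sub-cluster 0. *Cd86* measured 161 CPM and 151 CPM (ratio 0.933) and *Cd80* 15.9 CPM and 12.3 CPM (ratio 0.773), and both log2 intervals (-0.31 to 0.12 and -1.08 to 0.38) included 0. In sub-cluster 0 *Cd86* was 1.29-fold higher (log2 interval 0.10 to 0.62) and the adhesion ligand *Icam1* 1.64-fold (0.20 to 1.23), and *Cd80* had a ratio of 1.08 (-0.81 to 1.04). Over all myeloid-like cells *Cd274*, which encodes the inhibitory ligand PD-L1, was the only one of the 6 list genes with 20 UMIs that was at least 2-fold higher, with 3 UMIs in the control and 127 in the WMI library (11.6-fold). *Cd274* passed this minimum through the WMI library, so nothing is read from its being the only one.

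Across the 34 clusters of both libraries together, the genes whose log2(CPM + 1) was most like that of summed *H2-K1*, *H2-D1* and *B2m* were *Grn* (Pearson r = 0.974), *Unc93b1* (0.959), *Apoe* (0.957), *C1qa* (0.955) and *C1qb* (0.953), among 15434 genes. For summed class II genes they were *Spi1* (0.862), *Lamp1* (0.855), *Ftl1* (0.837), *Lgals3bp* and *Fcer1g* (0.836 each). The clusters share libraries and free RNA and 3 of them are myeloid-like, and the values are given as a description.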

How the data were processed

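UMIs were counted for each gene in each barcode of 1 control and 1 WMI library of mouse cerebral cortex. The authors made the deposited counts with Cell Ranger 6.1.1 and left them without normalization. The processing notes name the build mm9 and Seurat, whereas all identifiers matched GENCODE M21 on GRCm38. Aligner settings and the treatment of introns and strand are not given in the sources used here.

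To be kept, a barcode needed 1000 UMIs, 500 genes and no more than 10% of its UMIs from mitochondrial genes, which 748 control and 241 WMI barcodes failed. Doublets were predicted from simulated ones within each library and removed at 0.8% per 1000 barcodes (785 and 542). Of 500 artificial doublets per library, 453 and 370 were found. Cells were integrated and clustered with Seurat 5.3.0 (R 4.3.3; features 2000, dimensions 30, resolution 0.8) by IntegrateData, as in the paper's methods, with the 9 genes, the pathway lists and cell-cycle genes left out of the features. For the 34 clusters a marker counted at 25% of its highest level, in 10% of cells and 3-fold above the lower quartile, and a name needed 4 markers and 40% of a list (60% for neurons). Myeloid-like cells were clustered again at a resolution of 0.3. Sub-clusters were named by another rule, in which a marker counted by its level against the highest and the median of the sub-clusters. A name again needed 40% of a list, and also a marker among the leading genes. The border between the 2 largest sub-clusters moved with the numerical library used, which was therefore fixed. Python 3.11.15, numpy 2.4.6, pandas 2.3.3 and scipy 1.17.1 were used.

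CPM were taken from UMIs summed over cells. The 95% intervals were computed exactly, with the Poisson distribution for levels, the conditional binomial for ratios and the Clopper-Pearson method for shares, and cover counting error only. A level of 0 was set to 3 counts over the cells of the library for a lower bound of a fold. The ratio intervals were tested on simulated data. No test was run, since each condition has 1 library and cells are not replicates. Promoter sequences from RefSeq were matched by symbol for 6 of the 9 genes. Those of *H2-D1*, *Tap1* and *H2-Eb1* were not printed because they lie wholly (250 bases, *H2-D1* and *Tap1*) or in part (88 of 250, *H2-Eb1*) in annotated exons.

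The text names the 9 genes, genes of 5 pathway lists (1 gene of these is not reported here), the cell type markers and, for class I and class II each, the 5 genes most alike in pattern. Leading genes of the sub-clusters and of the class II-rich cells were chosen after their values were seen. The members and lists were chosen with earlier results of these data known. Alternatives were 11 planned ones for the ratios, 2 for the shares, 2 for the background, and 3 added after seeing the data.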

Additional observations from a re-analysis of the deposited data

Results flagged for a closer look

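Some signal stood in barcodes that the comparisons did not use, above the level in barcodes of the same kind in the control library. The unnamed clusters (63 control and 458 WMI cells) had 85.7 CPM of the summed class I heavy chains in the WMI library against 4.26 CPM in the control library. They had 118 CPM of *B2m* against 8.51 CPM, and 59.5 CPM of the class II genes with *Cd74* against 0. The control values rest on 1, 2 and 0 UMIs, with upper limits of 23.7, 30.7 and 15.7 CPM. Of the 66 class II UMIs in the WMI library, 2 class II-rich cells held 24 and 9. Most cells of the unnamed clusters form a cluster led by mitochondrial RNAs and *Ftl1* that carries 10 of 20 myeloid markers. The barcodes left out by the quality limits (748 and 241) had 88.3 CPM of the heavy chains against 19.4 CPM, 115 CPM of *B2m* against 15.9 CPM, and 30.9 CPM of the class II genes against 1.76 CPM. The last 3 WMI values rest on 20, 26 and 7 UMIs.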

How the results depend on the processing

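No paired analysis was possible because the labels share only replicate number 1 between the groups. The 8 ratios of gene families were recomputed under 95 combinations of result and alternative, all with a log2 ratio above 0, and 90 stayed within their counting interval. The class II ratio in myeloid-like cells moved to 2.38 with predicted doublets kept, to 3.02 in sub-cluster 0 alone and to 3.70 without sub-cluster 3, the last 2 chosen after seeing the data. The heavy chain ratio moved to 3.09 in astrocyte-like cells with the level of neuron-like cells subtracted as an estimate of free RNA, and to 1.57 in neuron-like cells without clusters from mostly 1 library. In OL-lineage cells that subtraction left no control level to divide by. The cause of these moves was not tested. Of 289 ratios of single genes, all above 0, 12 moved. Shares of positive cells moved in 22 of 36 cases, without thinning or with thinning to 500 UMIs. The share of all genes at least 2-fold higher depended on the minimum. With at least 50 UMIs it was 5.77% in astrocyte-like, 2.57% in OL-lineage and 3.07% in neuron-like cells. With at least 1 UMI in each library it was 9.98% in myeloid-like, 12.8% in astrocyte-like, 8.12% in OL-lineage, 12.8% in fibroblast-like and 7.83% in neuron-like cells. Depth limits the class II genes in control myeloid-like cells, where 2 UMIs were found, and most genes in fibroblast-like cells.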
